A study of Homo sapiens with 8 samples.

Results

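The Prader-Willi domain on human chromosome 15 holds a cluster of imprinted genes that are expressed from the paternal copy. CpG methylation was measured here in 4 intervals of it: the SNRPN/SNURF control region, NDN, MAGEL2 and MKRN3. The intervals were set by position on genome build hg19, and no measured value enters their bounds. The SNRPN/SNURF control region was chr15:25200004-25201976 (1973 bases), NDN was chr15:23931451-23932759 (1309 bases), MAGEL2 was chr15:23888000-23894000 (6001 bases) and MKRN3 was chr15:23807086-23812495 (5410 bases). All CpGs listed within them were members: 13 in SNRPN/SNURF, 5 in NDN, 83 in MAGEL2 and 28 in MKRN3. Together these were 129 of 2965709 CpG positions listed on the autosomes and the X chromosome in any library. Between 110 of the 129 (passage 8) and 126 (passage 6) were listed in a library.

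The libraries came from HUES64, a human embryonic stem cell line, in which the genes for both de novo DNA methyltransferases, DNMT3A and DNMT3B, were knocked out. Methylation was read by reduced representation bisulfite sequencing (RRBS), in which genomic DNA is cut with MspI at CCGG and converted with bisulfite, so that the sequenced fragments are rich in CpGs. There were 8 libraries, 1 at each of passages 6, 7, 8, 11, 13, 17, 27 and 28, and all carried both knockouts. Unedited HUES64 cells were not analysed here. Whether the passages sampled 1 culture in succession, and whether the cells were 1 clone, is not in the labels. The p-values therefore describe scatter of libraries around a trend with passage, and that scatter may be technical.

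SNRPN encodes SmN, a core protein of spliceosomal particles, and SNURF is a small reading frame on the same transcript. Their shared start lies in the imprinting control region of the domain, a germline differentially methylated region: the maternal copy gains its methylation in the oocyte and the paternal copy does not. NDN (necdin, a MAGE-family protein that restrains growth of neurons), MAGEL2 (a MAGE-family protein that acts with a ubiquitin ligase in endosomal protein recycling) and MKRN3 (a RING-finger ubiquitin ligase whose loss causes central precocious puberty) are secondary regions, whose differential methylation is acquired after fertilization under the influence of the control region. DNMT3A and DNMT3B add methyl groups to unmethylated DNA, whereas DNMT1 copies existing methylation at replication. The comparison addressed how the germline region and the secondary regions kept their methylation over passages without the de novo enzymes. Reads were not assigned to the parental copies, so the imprints themselves were not measured.

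The promoters of MKRN3 and of SNURF/SNRPN carry CpGs on which the results below turn, and both are shown as RefSeq gives them (build GRCh38.p14, + strand, 250 bases before the gene start and the 30 that follow). MKRN3 is chr15:23565424-23565703 and SNURF/SNRPN is chr15:24954737-24955016 on that build. Capitals mark the CpGs that the files list. They were found by matching the spacing of CpGs: in the full window of 300 bases, 9 CpGs of MKRN3 (4 at the next best placement) and 6 of SNURF/SNRPN (also 4 at the next best) coincided with listed positions, and both windows gave the same shift between builds. By that placement the genes start at hg19 positions 23810821 and 25200134. The promoter windows of NDN and MAGEL2 could not be placed, so gene parts are not given for their CpGs.
MKRN3: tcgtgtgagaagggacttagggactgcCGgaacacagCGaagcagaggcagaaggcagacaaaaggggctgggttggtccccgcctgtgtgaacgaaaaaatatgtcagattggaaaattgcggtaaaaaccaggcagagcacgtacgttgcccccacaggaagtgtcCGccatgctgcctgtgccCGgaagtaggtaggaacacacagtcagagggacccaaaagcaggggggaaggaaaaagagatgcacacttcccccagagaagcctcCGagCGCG
SNURF/SNRPN: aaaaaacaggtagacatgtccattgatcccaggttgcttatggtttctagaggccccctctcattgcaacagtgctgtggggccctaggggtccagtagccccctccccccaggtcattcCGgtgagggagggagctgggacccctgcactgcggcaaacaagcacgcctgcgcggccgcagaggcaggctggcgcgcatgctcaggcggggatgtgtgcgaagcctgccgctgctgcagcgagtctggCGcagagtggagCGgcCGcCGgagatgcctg
The MspI motif CCGG occurred at 2 places in each printed sequence, and occurs in 22170 of all 35116 RefSeq promoter windows (63.1%). In MKRN3 a CCGG begins 65 bases before the gene start. In SNURF/SNRPN a CCGG begins at base 18 of the transcript, and it divides the reads described below.

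The whole libraries held 19898423 (passage 11) to 44599588 (passage 6) reads summed over CpGs, with a median of 6 to 8 reads per CpG, and 13 at passage 6. The 4 intervals were thinly covered. Reads summed over CpGs ranged between 105 and 265 per library in SNRPN/SNURF, 55 and 93 in NDN, 315 and 861 in MAGEL2, and 166 and 437 in MKRN3. A read that covers several CpGs is counted at each, so the 95% Wilson intervals given here, which cover counting error only, are too narrow. For comparison with the rest of the genome, 22626 autosomal tiles of 1000 bases, each with at least 3 CpGs of 10 or more reads in every library, gave a mean methylation level that went down at every step, 30.2%, 30.01%, 29.6%, 27.6%, 27.3%, 25.8%, 21.4% and 20.5% in passage order.

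The level of the SNRPN/SNURF control region was lowest in the middle of the series. Its methylation level was 28.3% at passage 6 (75 of 265 reads, 95% interval 23.2 to 34.0%), 25.4% at passage 7 (45 of 177) and 20.5% at passage 8 (30 of 146). It was 20.5% at passage 11 (26 of 127), 14.3% at passage 13 (15 of 105) and 22.8% at passage 17 (29 of 127). It was 25.8% at passage 27 (40 of 155) and 38.7% at passage 28 (67 of 173, 95% interval 31.8 to 46.2%). The lowest value was thus that of passage 13 and the highest that of passage 28. The mean of passages 27 and 28 was 32.3%, against 24.8 ± 3.92% (SD, n = 3) at passages 6 to 8, and the ranges of the late and early libraries overlapped. The slope was 0.415 ± 0.290 (SE, n = 8) points per passage, with Pearson r 0.505 (exact permutation over all 40320 orders, 2-sided p = 0.212, Benjamini-Hochberg adjusted p = 0.303) and Spearman rho 0.167 (exact permutation p = 0.703). Without the 2 passages farthest from the median passage, 27 and 28, r was -0.510 and the slope was -0.588 points per passage, so the direction of the trend rested on those libraries. Reads to the left of the MspI site described below, which were rarely methylated, made up between 17.9% (passage 28) and 35.2% (passage 13) of the interval's reads. Had each CpG kept its pooled level, the interval would have stood at 26.7% late, against 25.2% early.

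MKRN3 was the most highly methylated of the 4 intervals. Its level was 87.6% at passage 6 (383 of 437 reads, 95% interval 84.2 to 90.4%), 87.6% at passage 7 (227 of 259) and 86.7% at passage 8 (144 of 166). It was 85.6% at passage 11 (143 of 167), 90% at passage 13 (180 of 200) and 88.2% at passage 17 (231 of 262). It was 67.8% at passage 27 (116 of 171, 95% interval 60.5 to 74.4%) and 79.9% at passage 28 (274 of 343, 95% interval 75.3 to 83.8%). The 6 libraries up to passage 17 lay between 85.6% and 90%, and both late libraries lay below all of them. The late mean was 73.9%, against 87.3 ± 0.518% (SD, n = 3) early. Every library lay above the equal share of methylated and unmethylated reads that a methylated and an unmethylated copy would give. Whether the fall involved an imprint was not tested, as reads were not assigned to the parental copies.

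MAGEL2 stayed between 28.7% and 43.1%, with no steady direction. Its level was 42.4% at passage 6 (365 of 861 reads, 95% interval 39.1 to 45.7%), 31.9% at passage 7 (117 of 367) and 32.4% at passage 8 (102 of 315). It was 34.1% at passage 11 (128 of 375), 28.7% at passage 13 (112 of 390) and 43.1% at passage 17 (205 of 476). It was 29.3% at passage 27 (159 of 543) and 38.7% at passage 28 (208 of 538). Passages 7, 8, 11 and 13 all lay below passages 6 and 17, and the late and early ranges overlapped. The late mean was 34.0%, against 35.6 ± 5.93% (SD, n = 3) early, a difference well within the early spread. The slope was -0.0225 ± 0.264 points per passage (exact permutation p = 0.934).

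NDN was the most variable. Its level was 55.9% at passage 6 (52 of 93 reads), 35.5% at passage 7 (22 of 62), 20% at passage 8 (15 of 75) and 20% at passage 11 (11 of 55). It was 50% at passage 13 (29 of 58), 43.1% at passage 17 (31 of 72), 65.4% at passage 27 (53 of 81, 95% interval 54.6 to 74.9%) and 2.82% at passage 28 (2 of 71, 95% interval 0.776 to 9.70%). The highest and the lowest library were thus neighbours in passage. The late mean was 34.1%, against 37.1 ± 18.0% (SD, n = 3) early. Of its 5 CpGs, 4 lie between 23932055 and 23932080, so that a read can cover all of these, and no library had more than 20 reads at any of them.

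Early in the series the order of the intervals was MKRN3, NDN, MAGEL2 and SNRPN/SNURF. MKRN3 lay above the others in every library. MAGEL2 lay above SNRPN/SNURF in all 3 early libraries, while NDN overlapped both. At passages 27 and 28 the means of NDN, MAGEL2 and SNRPN/SNURF were 34.1%, 34.0% and 32.3%, and their ranges overlapped.

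**Figure D1:**
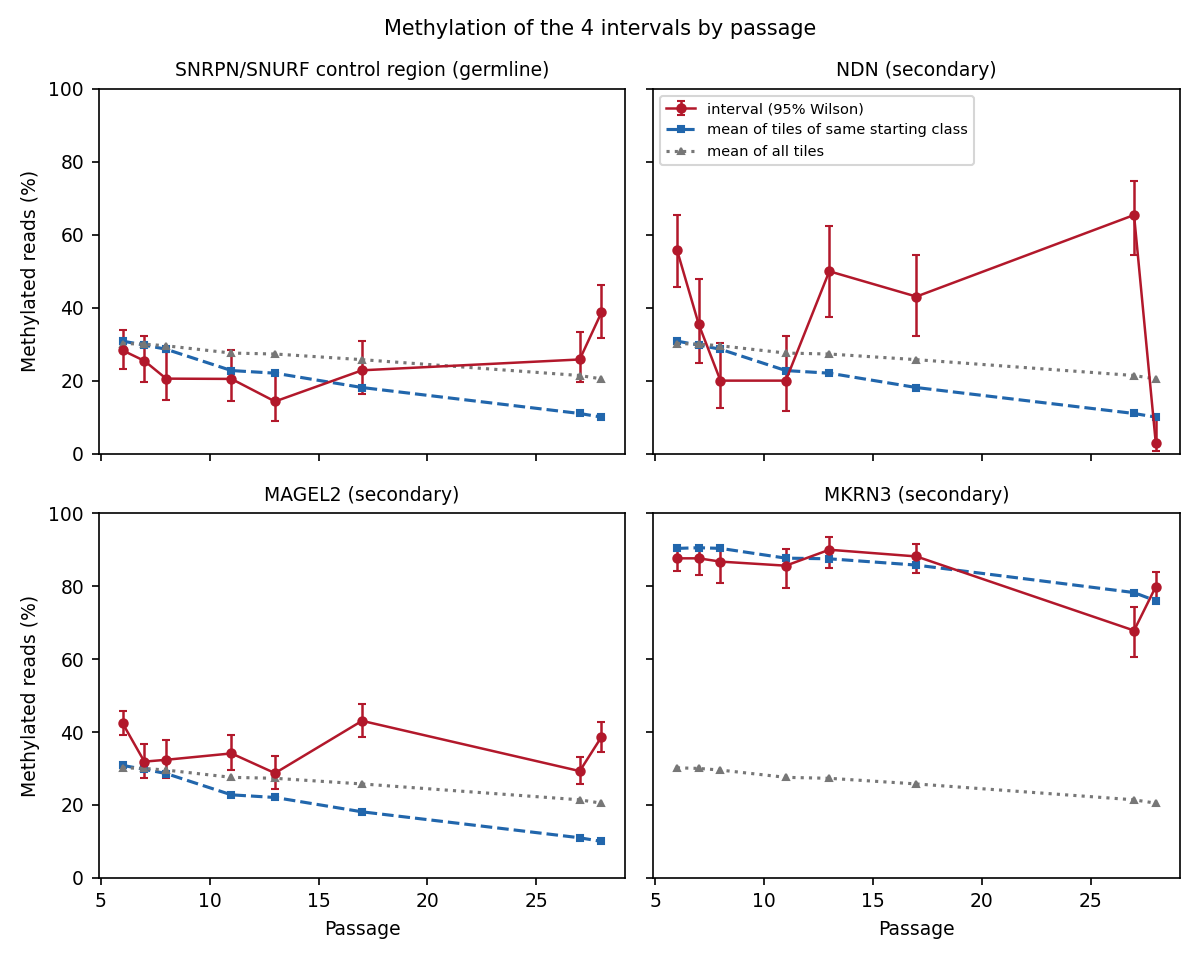
Methylated reads (%) of each interval against passage, as points with 95% Wilson intervals, beside the mean of all tiles and the mean of tiles of the same starting class (20 to 40% for SNRPN/SNURF, NDN and MAGEL2, 80 to 100% for MKRN3). SNRPN/SNURF stood at 38.7% at passage 28, where tiles of its class averaged 9.99%, and MKRN3 at passage 27 stood at 67.8%, where its class averaged 78.3%.

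A logistic fit of methylated reads on passage, with a moderated quasi-binomial dispersion and Benjamini-Hochberg adjustment over all 11743 tested tiles and the intervals, called a change at adjusted p under 0.05 and a fitted difference of at least 10 points between passages 28 and 6. By this rule 5590 tiles fell (47.6% of those tested) and 20 rose (0.17%). Of the 4 intervals 1 fell and none rose, and unadjusted p was under 0.05 for that 1. MKRN3 fell by 11.5 points (quasi-binomial fit, adjusted p = 0.00815). SNRPN/SNURF had a fitted difference of +7.82 points (adjusted p = 0.217), and of -1.25 points without passage 28 (adjusted p = 0.878). The fitted difference was -3.01 points for MAGEL2 (adjusted p = 0.578) and -3.74 points for NDN (adjusted p = 0.855). The spread of NDN around its trend was 16.5 times that of binomial counting, against a median of 1.96 times over tiles. Its sign turned with 1 library: the fitted difference was -32.5 points without passage 27 (adjusted p = 0.0625) and +25.1 points without passage 28 (adjusted p = 0.138).

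The call on MKRN3 rested on the last 2 libraries. Without passage 27 the fitted difference was -7.05 points (quasi-binomial fit, adjusted p = 0.0646), and over passages 6 to 17 alone it was +1.05 points (adjusted p = 0.860). The exact permutation test of its slope, -0.638 ± 0.219 (SE, n = 8) points per passage, gave r -0.766 (p = 0.0301, adjusted p = 0.0702) and rho -0.381 (p = 0.360). By that test 34.4% of tested tiles had a lower and 0.119% a higher slope at adjusted p under 0.05, and none of the 4 intervals passed.

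Within MKRN3 the upstream CpGs fell. The interval's CpGs form 2 stretches, separated by a gap of over 1000 bases. This division was made after the data had been seen. The 12 upstream CpGs (chr15:23807225-23807591, hg19) were methylated at 80.4% at passage 6 (78 of 97 reads), 89.6% at passage 7 (43 of 48) and 91.1% at passage 8 (41 of 45). They were at 83.3% at passage 11 (35 of 42), 88.2% at passage 13 (60 of 68) and 86.3% at passage 17 (44 of 51). At passage 27 the level was 29.3% (12 of 41 reads, 95% interval 17.6 to 44.5%) and at passage 28 it was 49.4% (44 of 89, 95% interval 39.3 to 59.6%). The deepest of the 12 CpGs had 8 reads at passage 27 and 19 at passage 28, so these levels rest on few reads. Both late libraries lay far below the other 6. The fitted difference was -42.8 points (quasi-binomial fit, adjusted p = 0.000524), between -48.6 and -34.5 points when each library was left out in turn, and called each time. Over passages 6 to 17 it was +3.35 points (adjusted p = 0.795), and the low values were those of passages 27 and 28 alone. Of the 4296 tiles that started at 80 to 100%, 6.15% had a change below that of these CpGs. Had each of the 12 kept its pooled level, they would have stood at 74.6% late, against 72.9% early. The pooled levels include the late libraries, and the cause of the fall was not tested.

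The 16 CpGs around the MKRN3 gene start (chr15:23810598-23811566, hg19), which include those in capitals in the MKRN3 sequence, stayed high. Their level was 89.7%, 87.2%, 85.1%, 86.4%, 90.9%, 88.6%, 80% and 90.6% in passage order, from 121 to 340 reads. The fitted difference was -1.03 points (quasi-binomial fit, adjusted p = 0.808). The late mean was 85.3%, against 87.3 ± 2.29% (SD, n = 3) early. The difference between the 2 stretches was not itself tested. Within this stretch the CpG at 23810757, which is the CpG of the CCGG that begins 65 bases before the gene start, had 16 of 27 reads methylated at passage 27 and 15 of 28 at passage 28, against 34 of 43 at passage 6, 35 of 46 at passage 7 and 11 of 15 at passage 8. Its late mean of 56.4% compared with 76.2% early, and the fitted difference of -20.7 points missed the threshold (quasi-binomial fit, adjusted p = 0.116).

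**Figure D2:**
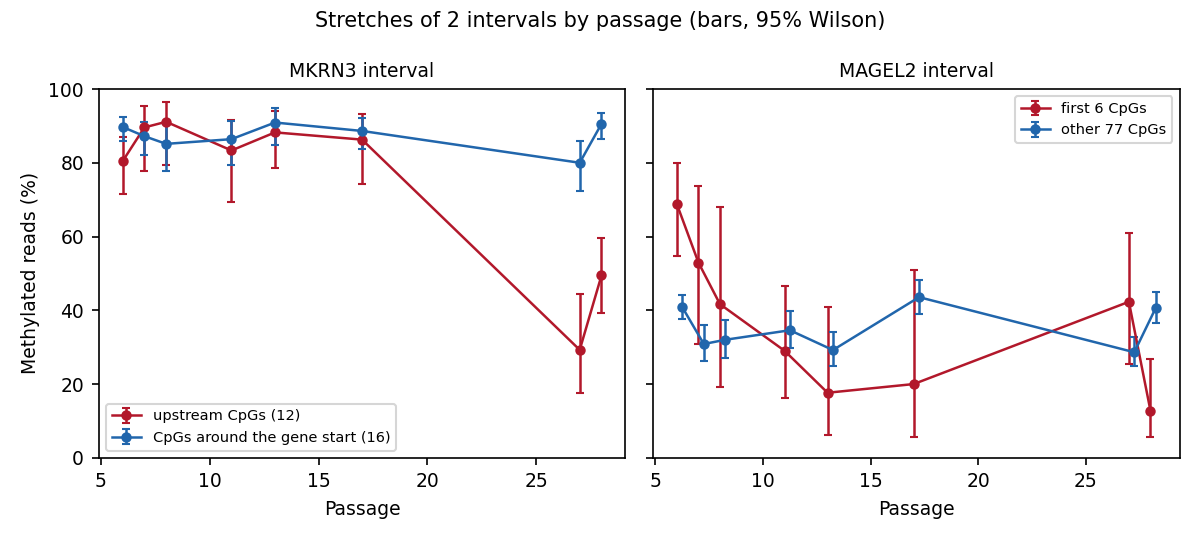
Methylated reads (%) of the 2 stretches of CpGs in the MKRN3 interval (left) and in the MAGEL2 interval (right) against passage, with 95% Wilson intervals as bars and MAGEL2's second stretch shifted sideways for clarity. The 12 upstream CpGs of MKRN3 dropped to 29.3% and 49.4% at passages 27 and 28 while the 16 around the gene start stayed at 80% or above.

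MAGEL2 too was not uniform along its length. It was divided at the same kind of gap after the data had been seen, and the difference between its stretches was not tested. Its first 6 CpGs (chr15:23888054-23889459, hg19) were methylated at 68.8%, 52.9%, 41.7%, 29.0%, 17.6%, 20%, 42.3% and 12.8% in passage order, from 10 to 48 reads. The fitted difference was -34.3 points (quasi-binomial fit, adjusted p = 0.0395), and the call was lost without passage 6, 7, 8 or 28 (adjusted p between 0.0549 and 0.368). It was -15.5 points without passage 6, -23.8 points without passage 28, -48.8 points without passage 27 (adjusted p = 0.00591) and -55.1 points over passages 6 to 17 (adjusted p = 0.0143). The level also depends on which CpGs hold the reads. The pair at 23889448 and 23889459 had 11 of 14 reads methylated at passage 27 and 4 of 6 at passage 28, against 26 of 26, 6 of 6 and 2 of 2 at passages 6, 7 and 8. The pair at 23888250 and 23888261 had 0 of 12 and 0 of 32 at passages 27 and 28, against 4 of 19, 3 of 10 and 3 of 10 at passages 6, 7 and 8. Had each CpG kept its level pooled over libraries, so that the mix of reads alone varied, the 6 CpGs would have stood at 24.96% at passage 28, against 58.2% at passage 6, and at 39.6% late, against 41.1% early. The called size of the fall is thus given with the mix of reads included. The other 77 CpGs (chr15:23890550-23893129, hg19) carried most reads and had a late mean of 34.7%, against 34.6 ± 5.46% (SD, n = 3) early, with a fitted difference of -1.13 points (adjusted p = 0.851). In this longer stretch the CpG at 23891189 had 4 of 13 reads methylated at passage 27 and 3 of 12 at passage 28, against 15 of 24, 2 of 17 and 8 of 13 at passages 6, 7 and 8, and its groups overlapped (quasi-binomial fit, adjusted p = 0.416).

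At SNRPN/SNURF the cut at CCGG separated CpGs of very different level. The 3 CpGs just before the cut lie on fragments to its left, and the CpG at 25200152, inside the CCGG, collects reads of the fragments on either side. At 25200149, the nearest CpG on the left, 4 of 70 reads were methylated over all 8 libraries (5.71%, 95% interval 2.24 to 13.8%), with no more than 1 methylated read in any library. At 25200165, the nearest on the right, 51 of 115 were methylated (44.3%, 95% interval 35.6 to 53.5%). When the reads of the left CpG were subtracted from those at 25200152, 52 of 114 of the remaining reads were methylated (45.6%, 95% interval 36.8 to 54.8%). The remaining reads and those of the right CpG matched to within 1 read in every library, in methylated and in total number. The reads at 25200152 were thus the sum of a nearly unmethylated left group and a right group with near-equal methylated and unmethylated reads.

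The right-hand reads showed no steady direction. Of those remaining at 25200152, 13 of 24 were methylated at passage 6 (54.2%), 8 of 13 at passage 7 (61.5%), 7 of 21 at passage 8 (33.3%) and 3 of 9 at passage 11 (33.3%). The values were 3 of 7 at passage 13 (42.9%), 5 of 10 at passage 17 (50%), 8 of 19 at passage 27 (42.1%) and 5 of 11 at passage 28 (45.5%). Every 95% interval held 50%, and the widest ran between 15.8 and 74.95%, so a moderate change was not detectable at this depth. The slope was -0.189 ± 0.452 (SE, n = 8) points per passage. Tiles that started at 40 to 60% (1319 tiles) averaged 19.9% at passages 27 and 28, against 49.96% at passages 6 to 8.

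Further along, the CpG at 25200221 was the one member with a called rise. Of its reads 8 of 50 were methylated at passage 6 (16%), 6 of 22 at passage 7 (27.3%), 2 of 20 at passage 8 (10%) and 5 of 21 at passage 11 (23.8%). The values were 3 of 16 at passage 13 (18.8%), 9 of 21 at passage 17 (42.9%), 12 of 28 at passage 27 (42.9%) and 15 of 31 at passage 28 (48.4%). The 3 libraries of passages 17 to 28 lay above the 5 earlier ones without overlap. The fitted difference was +30.6 points (quasi-binomial fit over all 90260 tested autosomal CpGs, adjusted p = 0.0125). Among all tested CpGs 33793 fell (37.4%) and 325 rose (0.36%), and of the 8 member CpGs covered by 10 or more reads in every library none fell and 1 rose. Unadjusted p was under 0.05 for that CpG alone. The call was lost without passage 6 (+28.1 points, adjusted p = 0.0527) or passage 28 (+28.7 points, adjusted p = 0.0821). The neighbouring CpG at 25200202 had fewer reads in every library. Subtracting its counts from those at 25200221 left 0 of 31 methylated at passage 6. It left 4 of 14, 1 of 9, 1 of 3 and 3 of 12 at passages 7, 8, 11 and 13. At passages 17, 27 and 28 it left 8 of 14, 7 of 14 and 7 of 16. The subtraction takes each read at 25200202 to cover 25200221 too, in the same state, which was not checked. The counts so left had the lowest level at passage 6 and lay at or above 43.8% in the last 3 libraries. No letters of this position were read, so whether it lies in a CCGG is not given.

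**Figure D3:**
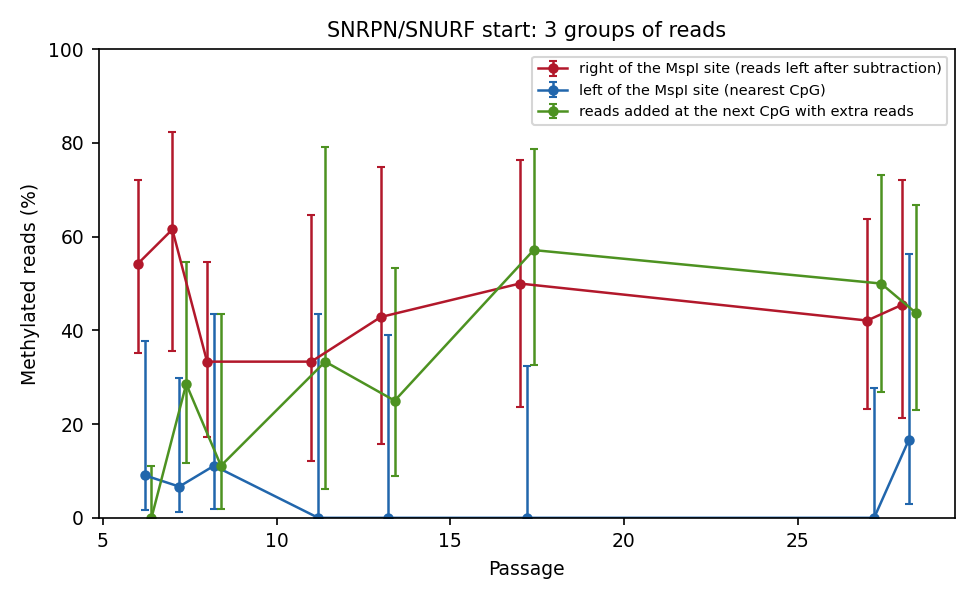
Methylated reads (%) against passage for 3 groups of reads around the SNURF/SNRPN start, with 95% Wilson intervals: reads remaining at the MspI site after those of the left CpG are subtracted, reads of the nearest CpG to its left, and reads at 25200221 beyond those of its neighbour (points are shifted sideways for clarity). The right-hand group stayed between 33.3% and 61.5%, and the left-hand group had at most 1 methylated read per library. Subtraction at 25200221 left 0 of 31 methylated at passage 6 and 43.8% or more in the last 3 libraries. It takes each read of the neighbour to cover both CpGs in the same state, which was not checked.

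The remaining CpGs of SNRPN/SNURF followed this division only in part. Dividing the interval at the cut was, like the divisions of MKRN3 and MAGEL2, done after the data had been seen. Right of the cut, near-equal methylated and unmethylated reads were not seen at every CpG. The level at 25200353 lay between 0% (passage 17, 0 of 6 reads) and 41.7% (passage 8, 5 of 12). That at 25200194 lay between 0% (passage 13, 0 of 4) and 53.3% (passage 28, 8 of 15). All 4 CpGs to the left of the cut averaged 8.06% late, 0% in the middle libraries (passages 11, 13 and 17) and 9.75 ± 1.48% (SD, n = 3) early. The first of the 4, 25200004, lies in the other CCGG of the printed sequence, so it can also collect reads of a further fragment. It had 0 of 20 reads methylated at passage 13 and 4 of 17 at passage 7. The next CpG, 25200133, had 0 of 5 and 1 of 15. The fitted difference of all 4 was -2.41 points (quasi-binomial fit, adjusted p = 0.768), and -13.3 points without passage 28, where it passed (adjusted p = 0.0166). The 6 from the cut to 25200353 averaged 39.7% late, against 30.02 ± 6.21% (SD, n = 3) early, a fitted difference of +10.3 points that missed the threshold (quasi-binomial fit, adjusted p = 0.180). The last 3, between 25201629 and 25201830, rested on 5 to 34 reads and averaged 30.8% late, against 39.9 ± 17.4% early.

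At NDN the 4 CpGs covered by 10 or more reads in every library moved as a block. At passage 28 each had 0 of 16 reads methylated, while at passage 27 between 12 of 20 and 14 of 20 were methylated. The CpG with the largest downward difference, 23932059, had a late mean of 34.2%, against 46.4% early, and the one with the smallest, 23932055, a late mean of 34.2%, against 37.3% early. Neither passed the test (adjusted p = 0.680 and adjusted p = 0.983, quasi-binomial fit). The tile that covers these CpGs was the only tested tile over any of the intervals, and its fitted difference was -5.70 points (adjusted p = 0.793).

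**Figure D4:**
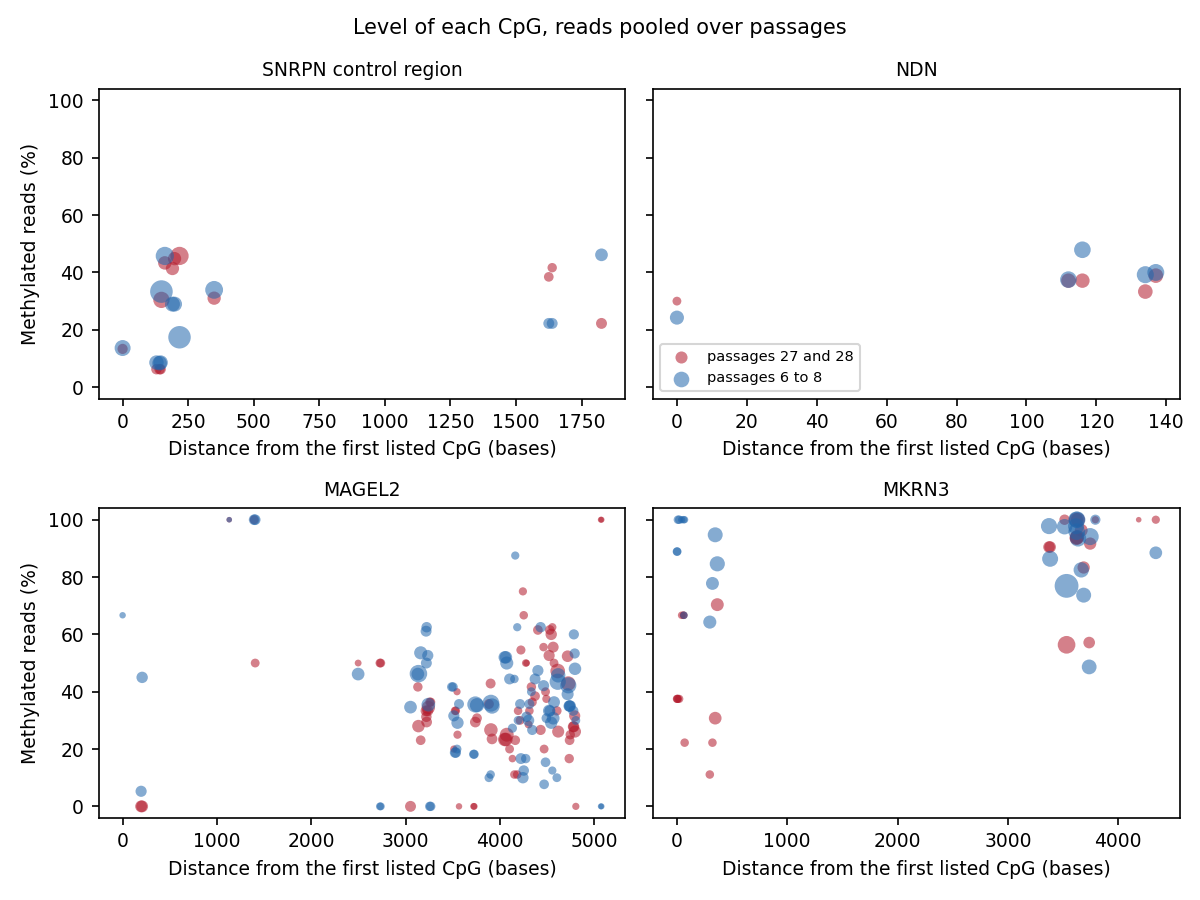
Methylated reads (%) of each CpG against its distance in bases from the first listed CpG of the interval, with reads pooled over passages 27 and 28 (red) and over passages 6 to 8 (blue), and with point area growing with the number of reads. In MKRN3 the drop is among the CpGs near distance 0, and in SNRPN/SNURF the CpGs before the MspI site are the lowest in both groups.

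The germline interval was then set against each secondary interval, over the 8 libraries. The 3 differences share the SNRPN/SNURF values. The difference in slope, SNRPN/SNURF minus the other, was 1.05 ± 0.370 points per passage against MKRN3 (SE, n = 8, exact permutation p = 0.0324, adjusted p = 0.0701), 0.438 ± 0.257 against MAGEL2 (exact permutation p = 0.141, adjusted p = 0.193) and 0.584 ± 1.13 against NDN (exact permutation p = 0.633, adjusted p = 0.646). The 3 differences were positive and none passed after adjustment over all tiles, where 30.8% of tiles had a slope below that of SNRPN/SNURF at adjusted p under 0.05. Over passages 6 to 17 all 3 were negative, at -0.709 points per passage against MKRN3, -0.828 against MAGEL2 and -0.891 against NDN. Without passage 28 the differences were 0.847, 0.216 and -1.30 in the same order.

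Against the mean of all tiles, whose slope was -0.433 ± 0.0131 points per passage, the SNRPN/SNURF slope was higher by 0.848 ± 0.294 (SE, n = 8, exact permutation p = 0.0230, adjusted p = 0.0643). By the same test 13.2% of tiles had a higher and 16.6% a lower slope than the mean of tiles, and none of the 4 intervals passed. With CpGs of at least 10 reads in every library, of which the interval has 2, the difference was 1.19 points per passage and passed (exact permutation, adjusted p = 0.0256). Of these 2, 25200221 had the called rise given above and a late minus early difference of +27.9 points, against -1.50 points at 25200152. The difference in slope was 0.842 and passed with 1 CpG per 100 bases, a setting that keeps 25200221 too (adjusted p = 0.0451). Over all alternatives the adjusted p lay between 0.0256 and 0.868. The difference in slope was 0.431 without passage 28 (adjusted p = 0.341) and turned to -0.165 over passages 6 to 17 (adjusted p = 0.868). MKRN3 differed from the mean of tiles by -0.206, MAGEL2 by 0.410 and NDN by 0.264 points per passage (exact permutation, adjusted p = 0.520 for MKRN3, none passing).

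The change of tiles varied with their starting level, so each interval was also set beside tiles of its own starting class. The 1383 tiles that averaged 20 to 40% at passages 6 to 8 were at 10.5% at passages 27 and 28, against 29.7% early, and so kept 35.3% of their level. SNRPN/SNURF, in that class, was at 130% of its early level, MAGEL2 at 95.6% and NDN at 91.9%. The late mean of SNRPN/SNURF joined 38.7% at passage 28 and 25.8% at passage 27, the latter close to its early mean of 24.8%. Of the tiles of the class, 98.6% had a change below that of SNRPN/SNURF, 90.7% below that of MAGEL2 and 88.4% below that of NDN. The slope minus that of the class was 1.34 ± 0.256 points per passage for SNRPN/SNURF (SE, n = 8, exact permutation p = 0.00394, without adjustment), 0.899 ± 0.272 for MAGEL2 (exact permutation p = 0.0194, without adjustment) and 0.753 ± 0.983 for NDN (exact permutation p = 0.455). Over passages 6 to 17 that of SNRPN/SNURF was 0.613 points per passage (exact permutation p = 0.268) and that of MAGEL2 1.44 (exact permutation p = 0.0875). MKRN3 lay in the class of 80 to 100%, whose 4296 tiles averaged 77.1% late, against 90.4% early, and its slope differed from theirs by 0.00390 ± 0.216 (exact permutation p = 0.984), and over passages 6 to 17 by 0.585 (exact permutation p = 0.0181, without adjustment). Its stretches lay on opposite sides of the class: the slope minus that of the class was -1.62 ± 0.517 for the upstream CpGs and 0.544 ± 0.178 for the CpGs around the gene start (SE, n = 8, exact permutation p = 0.0335 and p = 0.0102, without adjustment).

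**Figure D5:**
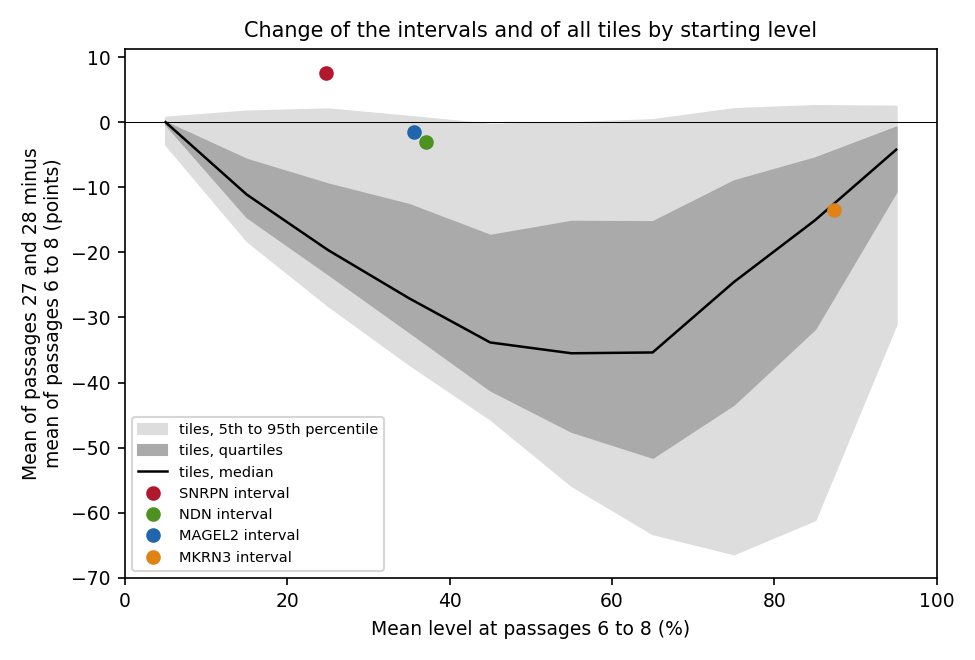
Mean level of passages 27 and 28 minus the mean of passages 6 to 8 (points) against the early mean (%), for the 4 intervals as points and for all tiles as the median, quartiles and 5th to 95th percentiles in classes of 10 points. SNRPN/SNURF, at +7.51 points, lies above the 95th percentile of tiles of its starting level (2.04 points), and MKRN3, at -13.5 points, near the median of its class (-15.1 points). The late mean of SNRPN/SNURF joins 38.7% at passage 28 and 25.8% at passage 27, the latter close to the early mean of 24.8%.

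The neighbourhood gave a reference within the domain. CpGs of chr15:23707086-25701976 outside the intervals numbered 1173 and averaged 66.8% late, against 72.6 ± 1.40% (SD, n = 3) early. Within 10 kb outside the intervals, 3 CpGs around MKRN3 had 78.1% late, against 79.2 ± 4.62% early (SD, n = 3). The level was 75.9% late, against 82.4 ± 3.71% early, around MAGEL2, and 68.8% late, against 76.5 ± 6.35% early, around NDN (SD, n = 3 each). Around SNRPN/SNURF 4 CpGs had 37.4% late, against 39.2 ± 23.3% early. Of 2 further genes of the domain, the 9 listed promoter CpGs of NPAP1, a paternally expressed gene between NDN and SNRPN, were at 96.8% late, against 91.2 ± 5.54% early. The promoter windows of UBE3A, a ubiquitin ligase that neurons express from the maternal copy and that lacks promoter methylation, were between 0% and 2% methylated in every library.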

How the data were processed

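RRBS libraries of HUES64 cells with DNMT3A and DNMT3B knocked out were analysed, 8 in all, grouped by the passage in the labels with 1 library each. Each deposited file lists CpGs of hg19, per the submitters' processing notes, with methylated and total reads per CpG as text. Another deposited column, a score equal to 1000 times the share of methylated reads, matched the reads on every line and served as a check alone. No aligner, methylation caller, coverage filter or handling of duplicate reads is given in the sources used here, and duplicates would make all intervals too narrow.

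Reads were summed per interval and library, with CpGs merged by position whatever strand label a library gave. The members and lists were chosen with earlier results of these data known. Tiles of 1000 bases used CpGs covered by 10 or more reads in every library, at least 3 a tile, and those with at least 10 methylated and 10 unmethylated reads over all libraries were tested. The fit was a quasi-binomial logistic regression in R 4.3.3 with dispersions moderated by limma 3.58.1 and not below 1. Exact permutation tests (Python 3.11.15, numpy 2.4.6) were 2-sided and ran over all 40320 orders of 8 libraries, which allows p no smaller than 2.48e-05. Both were adjusted by Benjamini-Hochberg over all tested tiles and the intervals, and tested on simulated data. CpGs named for their tested change are, per interval, those with the largest and the smallest downward (or largest upward) difference among CpGs covered by 10 or more reads in every library: 1 in MKRN3, 1 in MAGEL2, 4 in NDN and 2 in SNRPN/SNURF qualified. The other CpGs named in MAGEL2 and SNRPN/SNURF fall outside this rule and had fewer than 10 reads in some libraries. Alternatives covered coverage minimums, weighting, passage scale, the extent of intervals and leaving out libraries. Levels expected from the mix of reads alone (each CpG at its pooled level) were added after seeing the data. No hg19 genome or annotation was used here.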

Additional observations from a re-analysis of the deposited data

How the results depend on the processing

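Of 15 results for the intervals (slopes, differences of slopes and fitted differences), only the fitted difference of MKRN3 was called in the main setting. Over all 15, 280 of 290 alternative values stayed on the same side of the threshold. An uncalled result counts among these whatever its sign, so the number says little about stability. The called result lost its call in 5 of its 21 alternatives and reversed in 1. No paired analysis was possible because no passage was sampled by more than 1 library. The fitted difference of MKRN3 kept its sign but lost its call with a minimum change of 20 points (-11.5 points), with limma on logit levels (-12.4), with CpGs of at least 5 reads (-7.25) or at least 10 reads (-20.7) in every library, and reversed over passages 6 to 17 (+1.05). Leaving out each library in turn gave between -15.5 and -7.05 points, with passage 27 left out giving the smaller size. Results that passed under an alternative were SNRPN/SNURF minus MKRN3 with CpGs of at least 10 reads (1.76 points per passage) and SNRPN/SNURF minus all tiles with CpGs of at least 10 reads (1.19), with these weighted equally (1.14) and with 1 CpG per 100 bases (0.842; chosen after seeing the data). The upstream CpGs of MKRN3 reversed over passages 6 to 17 (+3.35 points). Tiles that fell numbered 2148 over passages 6 to 17, 26601 of 78387 at a minimum of 5 reads, 161 of 701 at 20 reads and 1430 of 3552 with at least 5 CpGs a tile. The numbers of rising tiles were 31 with no minimum change, 7 at 20 points, 12 with limma, 129 at 5 reads, 0 at 20 reads and 6 with at least 5 CpGs a tile. Signs of uncalled values differed in 28 of 290 values. The setting of at least 20 reads in every library left no CpG in any interval. Depth limits most results: 8 member CpGs had at least 10 reads in every library. The cause of these differences was not tested.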
